A study of Homo sapiens with 6 samples.

Results

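The 10 genes described here keep and transcribe the mitochondrial genome: TFAM, POLRMT, TFB1M, TFB2M, POLG, POLG2, SSBP1, MGME1, LONP1 and LRPPRC. They were taken by gene symbol from a table of 60708 genes, each symbol matched 1 row, and all 10 belonged to the 17401 genes tested, those that reached 10 reads in any sample. RNA of Caki-1 cells, a human clear cell renal carcinoma line from ATCC, was sequenced in 6 samples, 3 per group. VC cells, with the genotype WT in the labels, had received the lenti-CRISPR vector only, and VHL-KO cells had received it with an sgRNA against VHL. Which guide was used is not stated. By the labels, clonal knockout lines were made by lentiviral infection and puromycin selection, and immunoblots served as the check of the edited gene. How many clones the 3 VHL-KO samples stand for is not stated, so loss of VHL and traits of a clone cannot be told apart. The labels do not say that the samples came from separate cultures either, and p-values measure only the spread between these samples, which may be technical. The study asked how cells without VHL come to sense DNA in the cytosol, and whether that DNA comes from mitochondria.

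Mitochondrial DNA is a small circular genome, packed by TFAM into nucleoids and read by a polymerase of its own, POLRMT, which starts at promoters together with TFAM and TFB2M. A separate polymerase, POLG with its accessory subunit POLG2, copies the genome with the helicase TWNK and the single-strand binding protein SSBP1. All of these proteins are encoded in the nucleus, as are the factors that stabilize mitochondrial RNA or degrade nucleoid proteins, and in kidney tubule cells they serve a tissue rich in mitochondria.

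The libraries held 31789923, 28463579 and 34881739 counted reads in the VC group, against 29139722, 22805385 and 22628246 in knockout samples. The 10 genes took 32739, 29683 and 36645 of the reads in VC replicates 1 to 3 and 23768, 19134 and 18792 in VHL-KO replicates 1 to 3, which was 0.103%, 0.104% and 0.105% against 0.0816%, 0.0839% and 0.083%. Values below are CPM, counts scaled to a common library size with TMM factors, and fold changes are VHL-KO over VC. VHL itself, the edited gene, was at 42.6, 37.8 and 40.1 CPM in the VC group, against 34.8, 30.45 and 30.5 CPM in VHL-KO samples. Its log2 fold change was -0.33 (SE 0.11, edgeR quasi-likelihood F test, Benjamini-Hochberg adjusted p = 0.0109). The call ended in 5 alternatives, which were upper quartile factors, omission of VC replicate 1 or of VHL-KO replicate 2, and either set of offsets for GC content and length, where the Benjamini-Hochberg adjusted p of edgeR's quasi-likelihood test ranged from 0.0621 to 0.799. Of its exonic bases 23.5% also lie in exons on the opposite strand, whose reads could not be told apart without strand information.

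Of 6 genes known to respond to HIF, the factors that VHL marks for degradation, 5 were higher in VHL-KO cells and 1 was lower. Among all 17401 genes tested, 28.5% were called higher and 31.2% lower at an adjusted p under 0.05. NDRG1 rose from 11.65 ± 0.482 to 761 ± 28.5 CPM, VEGFA from 27.2 ± 2.25 to 152 ± 15.75 CPM, BNIP3 from 71.0 ± 4.25 to 167 ± 3.34 CPM and SLC2A1, a glucose transporter, from 293 ± 27.8 to 476 ± 28.5 CPM (mean ± SD, n = 3 each). CA9 had 0, 0 and 2 counts in the VC group, against 288, 247 and 233 counts in knockout samples. EGLN3, also a HIF target, went the other way, with 69, 41 and 67 counts in the VC group, against 10, 20 and 19 counts in knockout samples. The Caki-1 label was checked against markers. Of 8 kidney and renal carcinoma markers, 7 were tested, and PAX2 had no counts. Of the 7, 4 were higher (3 with library size alone), beside 28.5% of all genes. In the other direction 1 was lower (2 with the offsets or library size alone), beside 31.2% of all genes. The kidney cadherin CDH16 had a log2 fold change of 3.42, the transcription factor LHX1 of -1.67 and PAX8, with 384 to 629 CPM over the 6 samples, of 0.52 (0.33 with library size alone). Summed over the 8 genes, with KRT8 as the most abundant, these markers reached 1712, 1926 and 1560 CPM in the VC group, against 2388, 2312 and 2324 CPM in knockout samples. Of the leukocyte list only CD14 was tested (log2 fold change 1.47, and 0.90 with the offsets) and the list summed to at most 5.42 CPM in any sample, with 0 counts for CD3E and MS4A1. Of the endothelial list only PECAM1 was tested, with 0 to 14 counts a sample (log2 fold change 2.73, a call that ended when VC replicate 3 was omitted and a value of 4.57 when VC replicate 2 was), and the list summed to at most 0.711 CPM. KDR of the same list went the other way, with 4, 0 and 9 counts in VC samples and 0 in each knockout sample, and with the filter of 1 read in any sample 1 gene of the list was called lower. Of the fibroblast list only COL1A1, which carcinoma cells can also make, was tested (log2 fold change -0.42, and -0.78 with the offsets), and COL3A1 and LUM had 0 counts.

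In VHL-KO cells 5 of the 10 genes were lower and 1 was higher at an adjusted p under 0.05. Over all 17401 genes tested, 31.2% were called lower and 28.5% higher, so a large part of the transcriptome differed between the groups. The 5 lower genes were TFAM, TFB2M, LRPPRC, MGME1 and POLG, in order of size, and the higher gene was LONP1. For POLRMT, TFB1M, POLG2 and SSBP1 no difference was called. Of the 5 lower genes, 3 were down at least 2-fold, a change called for 12.3% of all genes. TFAM and TFB2M stayed at least 2-fold down in 15 of the 16 alternatives and LRPPRC in 8, while MGME1 reached 2-fold in 2. All 5 had every VHL-KO sample below every VC sample, which held for 33.5% of all genes, and LONP1 had every VHL-KO sample above, as did 31.2% of all genes. The median log2 fold change of the 10 genes was -0.38, beside -0.01 for all genes tested. In RNA from whole cultures, fewer cells that express a gene and less RNA per cell cannot be told apart. The split of all calls was 4958 higher and 5436 lower with TMM factors (47.7% higher) and 3764 higher and 6737 lower with library size alone (35.8% higher). With library size alone the median of all genes moved to -0.20, and with upper quartile factors to 0.10.

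**Figure D1:**
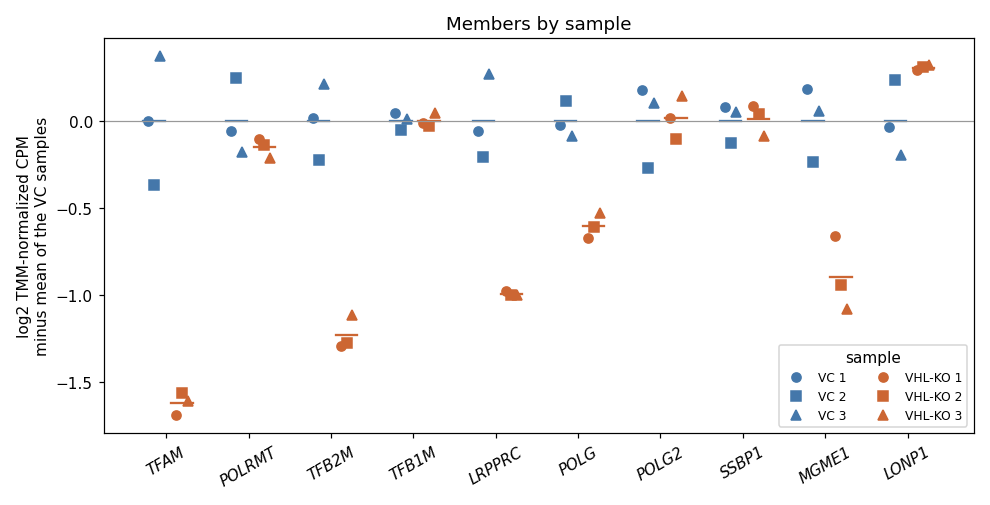
Log2 TMM-normalized CPM of each gene in each of the 6 samples, minus the mean of the 3 VC samples; points are samples, short lines are group means (n = 3). TFAM, TFB2M, LRPPRC, POLG and MGME1 have all VHL-KO points below all VC points, LONP1 has them above, and the points of the other 4 genes overlap; with library size alone LONP1 was no longer called.

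TFAM (ENSG00000108064.11, chr10:58385345-58399220 on GRCh38, plus strand), which coats and bends mitochondrial DNA and marks its promoters, had the largest fall among the 10 genes. It was measured at 30.2, 23.4 and 39.1 CPM in VC replicates 1 to 3 and at 9.36, 10.2 and 9.9 CPM in VHL-KO replicates 1 to 3. The VC samples spread widely, VC replicate 2 being lowest and VC replicate 3 highest, whereas the VHL-KO samples lay close together and below all of them. Mean levels were 30.9 ± 7.89 CPM in the VC group, against 9.82 ± 0.424 CPM in VHL-KO cells (SD, n = 3 each). This was a log2 fold change of -1.66 (SE 0.16, 95% interval -1.98 to -1.34), or 3.15-fold lower, with a Benjamini-Hochberg adjusted p of 1.93e-09 in edgeR's quasi-likelihood test. The call held in all 16 alternatives, with log2 fold changes from -1.85 to -0.99. The smallest falls came with offsets for GC content and length, at -1.03 with merged exons and -0.99 with the canonical transcript, and which of the 2 properties mattered was not tested.

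TFB2M (ENSG00000162851.8, chr1:246540561-246566261, minus strand) encodes the initiation factor that melts the promoter for POLRMT. Its levels were 27.7, 23.4 and 31.7 CPM in the VC group, against 11.2, 11.3 and 12.6 CPM in VHL-KO samples. The lowest VC sample, replicate 2, was still well above the highest VHL-KO sample, replicate 3. The log2 fold change was -1.24 (SE 0.14), or 2.36-fold lower, with a Benjamini-Hochberg adjusted p of 2.5e-08 in edgeR's quasi-likelihood test, and it stayed between -1.44 and -0.97 in the 16 alternatives. TFB1M (ENSG00000029639.11, chr6:155256134-155314493, minus strand), the paralog that methylates the RNA of the small ribosomal subunit, did not follow. It was at 12.4, 11.6 and 12.1 CPM in the VC group, against 11.9, 11.8 and 12.4 CPM in VHL-KO samples. The 6 values lay close together and the groups overlapped. The 95% interval of its log2 fold change ran from -0.28 to 0.28. With the offsets for GC content and length it was called higher, at 0.39 (Benjamini-Hochberg adjusted p = 0.00446 in edgeR's quasi-likelihood test, range over the 16 alternatives 0.00403 to 0.998). Exons of other genes, TIAM2 on the opposite strand among them, cover 38.7% of the exonic bases of TFB1M, so its counts are less certain than those of the other genes.

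POLRMT (ENSG00000099821.14, chr19:617221-633537, minus strand), the RNA polymerase that transcribes both strands and makes the primers for replication, was at 74.8, 92.5 and 68.8 CPM in VC. In VHL-KO samples it was at 72.7, 70.9 and 67.4 CPM. The groups overlapped, and the highest value belonged to VC replicate 2, the sample in which TFAM was lowest within its group. In that sample log2 CPM rose by 0.15 for each 10 points of GC content, relative to the group mean. POLRMT is richer in GC than TFAM (66.4% and 36.4%), and whether the 2 genes are otherwise linked was not tested. The log2 fold change of POLRMT was -0.16 (SE 0.11, 95% interval -0.38 to 0.06, Benjamini-Hochberg adjusted p = 0.193 in edgeR's quasi-likelihood test). POLRMT was called lower in 4 of the 16 alternatives: with library size alone (-0.35), when VC replicate 3 was omitted (-0.23) and under both versions of the offsets (-0.60 and -0.54). In the other direction, the value was -0.01 when VC replicate 2 was omitted and -0.05 with upper quartile factors.

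The promoters of these 4 genes are shown because all hold the letters of the same motif, while only TFAM and TFB2M were called lower. RefSeq sequences on GRCh38.p14 from 250 bases before to 50 bases after the first transcribed base are given on the strand of the gene, with matches to any of the motifs searched in capitals. Coordinates are chr10:58385160-58385459 for TFAM (plus strand), chr1:246566212-246566511 for TFB2M, chr6:155314435-155314734 for TFB1M and chr19:633488-633787 for POLRMT (minus strand each).
TFAM: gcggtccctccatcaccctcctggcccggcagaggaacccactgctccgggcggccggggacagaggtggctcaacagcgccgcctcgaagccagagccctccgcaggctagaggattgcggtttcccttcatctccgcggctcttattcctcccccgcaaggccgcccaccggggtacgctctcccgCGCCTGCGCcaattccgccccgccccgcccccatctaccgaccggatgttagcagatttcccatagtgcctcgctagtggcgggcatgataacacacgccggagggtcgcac
TFB2M: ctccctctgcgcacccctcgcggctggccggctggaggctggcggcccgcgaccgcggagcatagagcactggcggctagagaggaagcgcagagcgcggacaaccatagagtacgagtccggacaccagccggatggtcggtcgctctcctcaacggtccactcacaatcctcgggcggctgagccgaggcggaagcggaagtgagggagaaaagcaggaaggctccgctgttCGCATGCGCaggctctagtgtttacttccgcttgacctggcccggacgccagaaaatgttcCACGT
TFB1M: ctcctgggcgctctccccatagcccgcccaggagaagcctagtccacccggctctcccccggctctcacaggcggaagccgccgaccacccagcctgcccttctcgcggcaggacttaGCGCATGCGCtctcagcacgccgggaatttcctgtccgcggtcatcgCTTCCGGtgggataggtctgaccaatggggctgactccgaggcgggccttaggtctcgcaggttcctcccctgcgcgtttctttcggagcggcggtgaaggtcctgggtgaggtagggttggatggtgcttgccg
POLRMT: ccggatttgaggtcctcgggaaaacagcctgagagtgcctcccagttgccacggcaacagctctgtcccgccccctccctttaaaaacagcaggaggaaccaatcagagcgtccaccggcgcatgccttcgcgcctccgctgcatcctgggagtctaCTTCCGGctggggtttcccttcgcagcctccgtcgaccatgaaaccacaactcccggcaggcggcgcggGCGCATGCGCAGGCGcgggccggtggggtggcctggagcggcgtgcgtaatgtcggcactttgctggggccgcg
The motifs were GCGCANGCG, bound by NRF1; CCGGAAG, bound by GABPA; ACGTG, the core of HIF sites; CACGTG, the E-box, which contains ACGTG; and AAGATGGC, the core bound by YY1. Each was searched on both strands. The NRF1 letters were found in all 4 promoters, at position -62 in TFAM and -16 in TFB2M from the first transcribed base, and occur in 7.52% of the 35116 promoters in the table. The GABPA letters were found in TFB1M and POLRMT, and in 10.3% of all promoters. TFB2M alone of the 4 held ACGTG, at position 46, a sequence found in 21.4% of all promoters. A match describes letters only, and whether any factor binds there was not tested.

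LRPPRC (ENSG00000138095.20, chr2:43886224-43996226, minus strand) binds mitochondrial mRNAs together with SLIRP and keeps them stable. It was at 182.7, 165.1 and 229.1 CPM in the VC group, against 96.6, 95.2 and 95.3 CPM in VHL-KO samples. The VHL-KO values were nearly equal to each other and well under the lowest VC value, that of replicate 2. The log2 fold change was -1.01 (SE 0.10), or 2.01-fold lower, with a Benjamini-Hochberg adjusted p of 1.16e-08 in edgeR's quasi-likelihood test. The call held in all 16 alternatives, but the fall was under 2-fold in 8 of them. Among these were DESeq2 and RLE factors (-0.98 each), upper quartile factors (-0.89), omission of VC replicate 3 (-0.85) and the offsets for GC content and length (-0.49). LRPPRC has merged exons of 34689 bases, against 6603 bases in its canonical transcript, and their GC contents are 36.7% and 41.6%.

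In the replication machinery the catalytic subunit and its partner parted. POLG (ENSG00000140521.17 in the counts, annotated as ENSG00000140521.18 at chr15:89305198-89334861, minus strand), the DNA polymerase, was at 68.7, 75.6 and 65.6 CPM in the VC group, against 43.8, 45.65 and 48.4 CPM in VHL-KO samples. The groups did not overlap, VC replicate 3 being the lowest of its group and VHL-KO replicate 3 the highest of the other. The log2 fold change was -0.61 (SE 0.10), or 1.52-fold lower, with a Benjamini-Hochberg adjusted p of 1.1e-05 in edgeR's quasi-likelihood test and values from -0.80 to -0.50 in the 16 alternatives. Exons of FANCI and POLGARF cover 14.99% of its exonic bases. POLG2 (ENSG00000256525.8, chr17:64477785-64497054, minus strand), the subunit that makes POLG processive, was at 21.8, 15.95 and 20.7 CPM in the VC group, against 19.5, 17.9 and 21.3 CPM in VHL-KO samples. Values of both groups were interleaved, with VC replicate 2 lowest of all. The 95% interval of its log2 fold change ran from -0.27 to 0.28.

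SSBP1 (ENSG00000106028.11, chr7:141738334-141787922, plus strand), which covers the single strands laid bare at the fork, was at 152.7, 132.6 and 150.0 CPM in the VC group, against 153.4, 148.6 and 136.0 CPM in VHL-KO samples. The groups overlapped, and the 95% interval of the log2 fold change, -0.18 to 0.20, was the narrowest of the 4 genes without a call. With the offsets for GC content and length from merged exons, POLG2 and SSBP1 were called higher, at 0.33 and 0.49. With offsets computed from the canonical transcript, an alternative chosen after seeing the data, both calls were absent (-0.00 and -0.04). The exons of SSBP1 are 4975 bases long when merged and 677 bases in that transcript. MGME1 (ENSG00000125871.14, chr20:17969018-17991122, plus strand), a nuclease that trims the ends left by replication, was at 21.7, 16.2 and 19.8 CPM in the VC group, against 12.05, 9.92 and 9.01 CPM in VHL-KO samples. The lowest VC sample was still above the highest VHL-KO sample, replicate 1. The log2 fold change was -0.89 (SE 0.15), or 1.86-fold lower, with a Benjamini-Hochberg adjusted p of 1.46e-05 in edgeR's quasi-likelihood test and values from -1.09 to -0.66 in the 16 alternatives.

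LONP1 (ENSG00000196365.12, chr19:5691834-5720572, minus strand), the protease that degrades TFAM not bound to DNA, was the gene called higher. Its levels were 366.2, 442.8 and 328.3 CPM in the VC group, against 459.4, 465.4 and 469.1 CPM in VHL-KO samples. The groups did not overlap, but VC replicate 2 came close to the lowest VHL-KO sample, replicate 1. The log2 fold change was 0.29 (SE 0.10, Benjamini-Hochberg adjusted p = 0.0117 in edgeR's quasi-likelihood test), or 1.23-fold higher. Of the 6 calls it was the least stable: it ended with library size alone (0.10), when VC replicate 1 was omitted (0.27) and under offsets for GC content and length, where the value turned to -0.09 with merged exons and -0.05 with the canonical transcript. The Benjamini-Hochberg adjusted p over the 16 alternatives (edgeR's quasi-likelihood test, or DESeq2's Wald test) ran from 3.16e-06 to 0.434. The promoters of MGME1 (chr20:17968768-17969067, plus strand) and LONP1 (chr19:5720097-5720396, minus strand, the downstream start of 2 listed) are shown because the genes moved in opposite directions, with matches again in capitals.
MGME1: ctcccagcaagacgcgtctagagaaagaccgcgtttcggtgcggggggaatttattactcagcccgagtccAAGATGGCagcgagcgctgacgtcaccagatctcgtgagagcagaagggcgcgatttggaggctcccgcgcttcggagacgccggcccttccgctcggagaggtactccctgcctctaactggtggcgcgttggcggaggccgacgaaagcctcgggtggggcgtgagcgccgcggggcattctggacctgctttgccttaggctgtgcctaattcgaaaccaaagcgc
LONP1: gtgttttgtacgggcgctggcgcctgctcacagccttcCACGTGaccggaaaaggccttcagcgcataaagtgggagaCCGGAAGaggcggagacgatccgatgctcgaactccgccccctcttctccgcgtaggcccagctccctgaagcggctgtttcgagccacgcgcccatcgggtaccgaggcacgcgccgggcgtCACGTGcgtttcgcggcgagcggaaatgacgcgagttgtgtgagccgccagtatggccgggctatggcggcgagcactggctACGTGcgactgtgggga
The capitals in MGME1 mark AAGATGGC at position -179, present in 2.89% of all promoters. Those in LONP1 mark 2 matches to CACGTG, present in 7.26% of all promoters, a further ACGTG and a match to CCGGAAG. The upstream window of LONP1 (chr19:5720403-5720702, not shown) holds 2 overlapping matches to the NRF1 letters, which the lower genes TFAM and TFB2M also have, and an ACGTG at position -219. No match to any of the 5 motifs was found in the windows of LRPPRC and POLG. In all, 13 promoters of the 10 genes were in the table, some of them overlapping, so matches are counted by gene. The NRF1 letters were found for 6 of the 10 genes and for 9.02% of the 27305 genes in the table, the GABPA letters for 5 (12.2% of all genes) and ACGTG for 2 (24.9%). CACGTG was found for 1 of the 10 genes (8.77% of all genes) and the YY1 letters for 2 (3.52%).

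Fold changes in these data followed GC content, and the members span a wide range of it. Among all tested genes with a GC content of 35 to 40% in merged exons, the median log2 fold change was -0.48, and among those of 60 to 65% it was 0.51. Genes called lower made up 52.5% of the range of TFAM and LRPPRC. In the range of TFB2M, TFB1M, POLG2, SSBP1 and MGME1 they were 42.1%. They were 17.6% in the range of POLG, 14.5% in that of LONP1 and 11.8% in that of POLRMT. Genes called higher were 13.2%, 17.6%, 42.6%, 52.2% and 51.6% of these ranges, in the same order. TFAM, at 36.4%, was 1.18 below the median of its range, TFB2M, at 41.2%, 0.95 below, POLG, at 55.0%, 0.93 below, and MGME1, at 44.02%, 0.60 below. LRPPRC was 0.53 below the median of its range. POLRMT, at 66.4% the richest in GC, was 0.68 below the median of genes of 65 to 70%, which was 0.52. LONP1, at 62.1%, rose by less than the median gene of its range, while SSBP1, TFB1M and POLG2 lay 0.30, 0.29 and 0.30 above the median of genes of 40 to 45%. The trend was not confined to the contrast of the groups. Within VC, log2 CPM rose by 0.15 for each 10 points of GC content in replicate 2 and fell by 0.15 in replicate 3, relative to the group mean over 13144 genes. In the VHL-KO samples these slopes were between -0.01 and 0.01, and between the groups the slope was 0.39. What produced the trend was not tested, and offsets that remove it also remove any change of biological origin that follows GC content. With these offsets 6 of the 10 genes were called lower, beside 30.9% of all genes, and 3 were called higher, beside 29.2% of all genes. The median of the 10 genes was then -0.55, beside -0.00 for all genes.

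**Figure D2:**
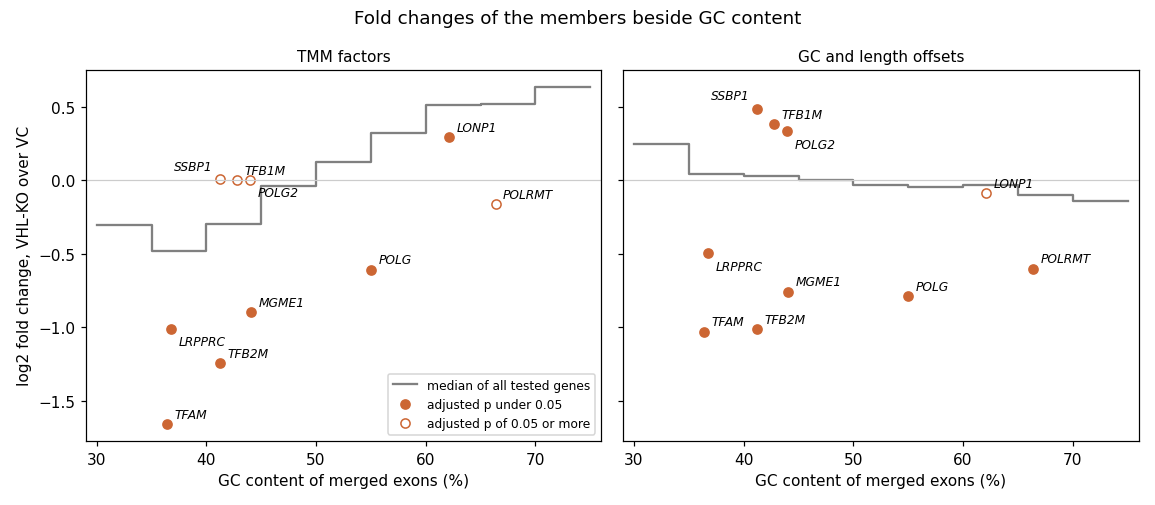
Log2 fold change of the 10 genes (VHL-KO over VC, n = 3 each) against the GC content of their merged exons in percent, with TMM factors on the left and with GC and length offsets on the right; filled points have an adjusted p under 0.05 and the grey line is the median of all tested genes in steps of 5 points. TFAM, TFB2M, LRPPRC, MGME1, POLG, POLRMT and LONP1 lie under the line in both panels. Of the 2 panels only that with the offsets has POLRMT called lower and SSBP1, TFB1M and POLG2 called higher.

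Levels of different genes were compared per kilobase. With merged exons as the length, LONP1 was the most abundant member in VC cells (75.3 ± 11.6 CPM per kilobase, SD, n = 3), followed by SSBP1 (29.2 ± 2.20). POLRMT (15.6 ± 2.44) and TFB2M (15.5 ± 2.32) did not differ beyond their spread, nor did MGME1 (8.61 ± 1.26) and POLG (8.45 ± 0.617), or TFAM (5.85 ± 1.49) and LRPPRC (5.54 ± 0.954). POLG2 (4.28 ± 0.68) and TFB1M (2.93 ± 0.0991) stood last. In VHL-KO cells LONP1 (92.3 ± 0.978), SSBP1 (29.4 ± 1.81) and POLRMT (13.9 ± 0.529) kept the first 3 places, and TFAM went from place 7 to place 10 with a level of 1.86 ± 0.0803. The order depended on the length used. With the length of the canonical transcript, chosen after seeing the data, SSBP1 came first in VC cells (214 ± 16.2 CPM per kilobase), then LONP1 (123 ± 18.9) and LRPPRC (29.1 ± 5.01), while TFAM was at place 9 in VC (6.15 ± 1.57) and place 10 in VHL-KO cells (1.95 ± 0.0844).

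**Figure D3:**
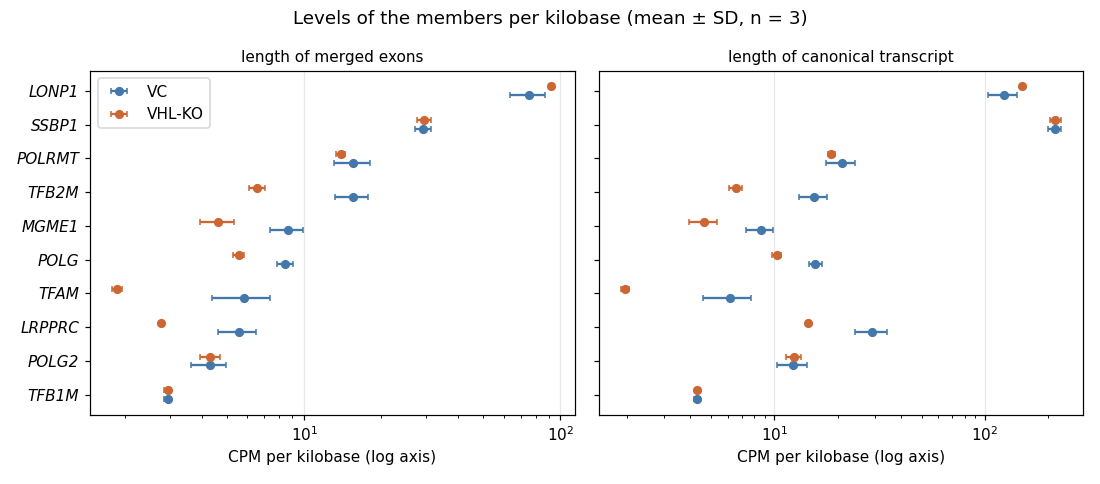
Levels of the 10 genes in CPM per kilobase on a log axis, by length of merged exons on the left and of the canonical transcript on the right; points are group means and bars are SD (n = 3). TFAM is at 1.86 in VHL-KO cells on the left, below the other 9 genes, and SSBP1, LRPPRC and POLG2 shift most between the panels.

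Ratios of genes that work together were taken within each sample, where no scaling between samples enters. The log2 ratio of POLRMT to TFAM, polymerase to packaging factor, was 1.31, 1.98 and 0.81 in the VC group, against 2.96, 2.80 and 2.77 in knockout samples. Every VHL-KO sample was higher, by 1.47 on average, and the VC samples again spread more than the VHL-KO samples. The log2 ratio of TFB1M to TFB2M was -1.16, -1.01 and -1.39 in the VC group, against 0.10, 0.06 and -0.02 in knockout samples. In VC cells TFB2M thus had more counts than its paralog in every sample, and in VHL-KO cells counts of both were nearly equal, with a difference between the groups of 1.23. Without the offsets for GC content and length, the log2 ratio of LONP1 to TFAM, protease to substrate, differed most. It went from a mean of 3.64 ± 0.59 in VC to 5.57 ± 0.05 in VHL-KO samples (SD, n = 3 each). POLG to POLG2 went from 1.86 ± 0.34 to 1.23 ± 0.10 and LRPPRC to SLIRP from 1.88 ± 0.22 to 1.42 ± 0.21, both without overlap of the groups. POLG to TWNK, polymerase to helicase, and LONP1 to CLPP, another protease of the matrix, overlapped, with differences of -0.13 and 0.05. The difference in POLG to TWNK ran from -0.22 to -0.03 when any sample was omitted. In an exact two-sided permutation test over 20 arrangements of the samples, the 5 pairs without overlap had p = 0.1, the smallest p that 3 against 3 samples allow, and p = 0.14 after Benjamini-Hochberg adjustment over the 7 pairs. The other pairs had p = 0.4 and p = 0.7 in this exact permutation test. With the GC and length offsets the difference in POLRMT to TFAM shrank to 0.42, that in LONP1 to TFAM to 0.94 and that in LRPPRC to SLIRP to -0.03, the last with overlap of the groups, whereas TFB1M to TFB2M was at 1.40 and POLG to POLG2 at -1.13. With offsets from canonical transcripts, chosen after seeing the data, these 5 differences were 0.44, 0.94, 0.36, 1.35 and -0.81, so that of LRPPRC to SLIRP turned, and POLG to TWNK was at -0.35 without overlap of the groups.

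**Figure D4:**
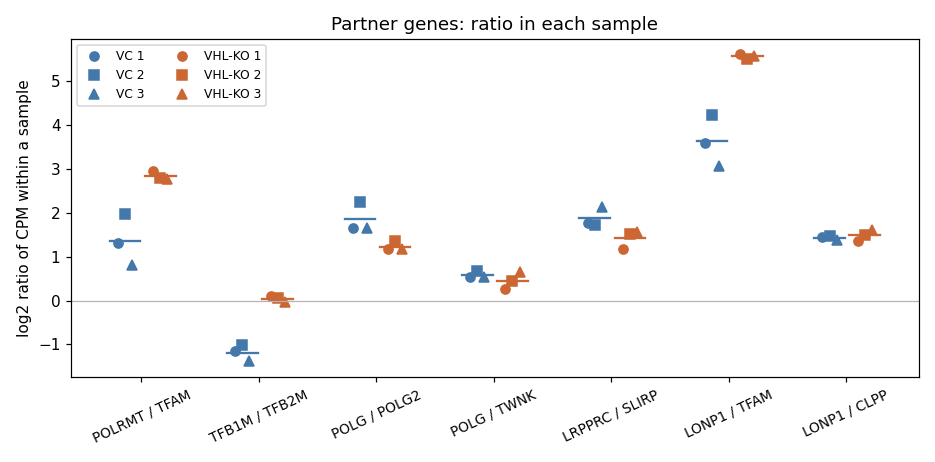
Log2 ratio of CPM of 7 pairs of genes in each of the 6 samples; points are samples and short lines are group means (n = 3). The groups do not overlap for POLRMT to TFAM, TFB1M to TFB2M, POLG to POLG2, LRPPRC to SLIRP and LONP1 to TFAM.

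The genes whose pattern over the 6 samples lay closest to that of TFAM were UCHL5, ZDHHC20 and AZIN1, with root-mean-square distances of 0.0383, 0.0649 and 0.0683 in centred log2 CPM, beside a median of 0.797 over the 8446 other genes of at least 10 CPM. Their GC contents were 37.3%, 40.1% and 38.7%, near the 36.4% of TFAM, and their log2 fold changes were -1.64, -1.63 and -1.68, or -0.95, -0.99 and -1.04 with the offsets from canonical transcripts. Closest to POLRMT were HSPBP1, POLD2 and ZNRD2, at distances of 0.0322, 0.0325 and 0.0356, beside a median distance from POLRMT of 0.317. The GC contents of these 3 genes were 63.5%, 55.45% and 65.5%. Their log2 fold changes were -0.13, -0.12 and -0.12, and none of these 3 was called, though all were called lower with library size alone and with the offsets.

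Of 10 genes of replication and repair, all tested, 7 were lower and 1 was higher, with a median log2 fold change of -0.61, where 31.2% of all genes tested were lower and 28.5% higher. The higher gene was the nuclease ENDOG, at 0.98, and at 0.13 without a call when the offsets were used, and exons of other genes cover 40.1% of its exonic bases. The helicase-nuclease DNA2 fell most, from 8.82, 7.27 and 10.1 CPM in the VC group to 0.786, 1.30 and 0.797 CPM in VHL-KO samples (log2 fold change -3.19, SE 0.24). DNA ligase LIG3 and the flap nuclease FEN1, which also act in the nucleus, were at -1.17 (30.5% of exonic bases shared with other genes) and -1.14, and TWNK at -0.48. With the offsets 7 of the 10 were lower and 0 higher by edgeR's test (30.9% and 29.2% of all genes), and over the 16 alternatives 6 to 8 were lower and 0 to 2 higher. Of 14 genes that supply nucleotides, 12 were tested, 6 were lower and 4 higher, and the median was -0.03. With the offsets the balance turned, with 5 lower, 6 higher and a median of 0.15, and over the 16 alternatives 5 to 6 were lower and 2 to 6 higher. The 2 subunits of ribonucleotide reductase of dividing cells fell, RRM2 by 2.07 and RRM1 by 1.43 on the log2 scale, whereas TYMP, which breaks down thymidine, was higher by 1.498, a value that was 1.04 with the offsets from merged exons and 0.75 with those from the canonical transcript. CMPK2 had 0 counts in every sample and ABAT at most 7.

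The counts that follow again stand beside 31.2% lower and 28.5% higher among all genes tested. Of 8 accessory factors of transcription and of transfer RNA modification, 5 were lower and 1 higher, with a median of -0.49. MTERF3, which binds at the promoter region, was at -0.93, the elongation factor TEFM at -0.65 and MTERF2 at -0.63, and with the offsets from merged exons TEFM and MTERF2 were no longer called (-0.19 and -0.31). The list then had 2 lower and 1 higher gene, and over the 16 alternatives 2 to 6 lower and 0 to 1 higher. Of 18 genes of RNA processing and decay 13 were lower and 1 was higher, with a median of -0.51, and 10 lower and 2 higher with the offsets (10 to 15 and 1 to 3 over the 16 alternatives). FASTKD3, the nuclease LACTB2 and PDE12, which removes poly(A) tails, were at -1.35, -1.34 and -1.32, and SLIRP, the partner of LRPPRC, at -0.52. With the offsets from merged exons FASTKD3 and PDE12 were at -0.85 each, and SLIRP reached -0.87 with those from the canonical transcript. FASTK, the higher gene, was at 0.77, and at 0.35 with the offsets. Of 13 proteases, chaperones and scaffold proteins of the nucleoid 8 were lower and 3 higher, with a median of -0.59. The lower genes numbered 8 to 10 over the 16 alternatives and the higher genes 1 to 4, with 1 when VC replicate 1 was omitted or with library size alone. The chaperonin genes HSPD1 and HSPE1, which share a promoter, were at -1.498 and -1.15, and ATAD3B at -1.01. CLPP was called higher at 0.25, a call that ended in 8 of the 16 alternatives. Of 10 regulators of mitochondrial biogenesis 7 were lower and 1 was higher, with a median of -0.42, and in the 16 alternatives 5 to 8 were lower. The coactivator PPARGC1B was at -1.51. GABPB1 and GABPA, subunits of the factor that binds CCGGAAG, were at -1.36 and -1.29. With the offsets these values were -0.81 and -0.69 (merged exons) or -0.73 and -0.62 (canonical transcript). NRF1 and YY1, whose motifs were also searched, were called lower at -0.39 and -0.45, and at -0.28 and -0.34 with the offsets from merged exons. GABPB2 of the same list was not called, at -0.06, and at 0.17 with the offsets from merged exons. PPARGC1A, a paralog of PPARGC1B, was the higher gene, at 1.13, and at 1.62 with the offsets. Beside these medians stood -0.01 for all genes tested. Exons of other genes cover 20.5% of the exonic bases of TEFM, 17.9% of those of HSPE1, 14.8% of those of SLIRP, 12.05% of those of GABPA and 11.6% of those of MTERF2, and among genes named further above 35.7% of those of CA9, 22.4% of those of PAX8 and 19% of those of TYMP.

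Of the 13 protein-coding genes of the mitochondrial genome itself, which this machinery transcribes, 10 were higher and 2 lower, beside 28.5% and 31.2% of all genes. Their median was 0.70. Their sum went from 5.997%, 5.02% and 6.09% of all counts in the VC group to 8.94%, 7.89% and 8.17% in VHL-KO samples. MT-ND3 and MT-CO2 were at 1.49 and 1.11, and the rRNAs MT-RNR2 and MT-RNR1 were at 0.87 and 0.63. The 2 lower genes, MT-ATP8 (-1.65, with 22.2% of its bases shared with MT-ATP6) and MT-ND4L (-0.72), lie on the same mRNAs as MT-ATP6 (1.10) and MT-ND4 (0.80), so their values need not stand for separate RNAs. Whether these changes are linked to those of the genes above was not tested, and the amount of mitochondrial DNA was not analysed here.

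**Figure D5:**
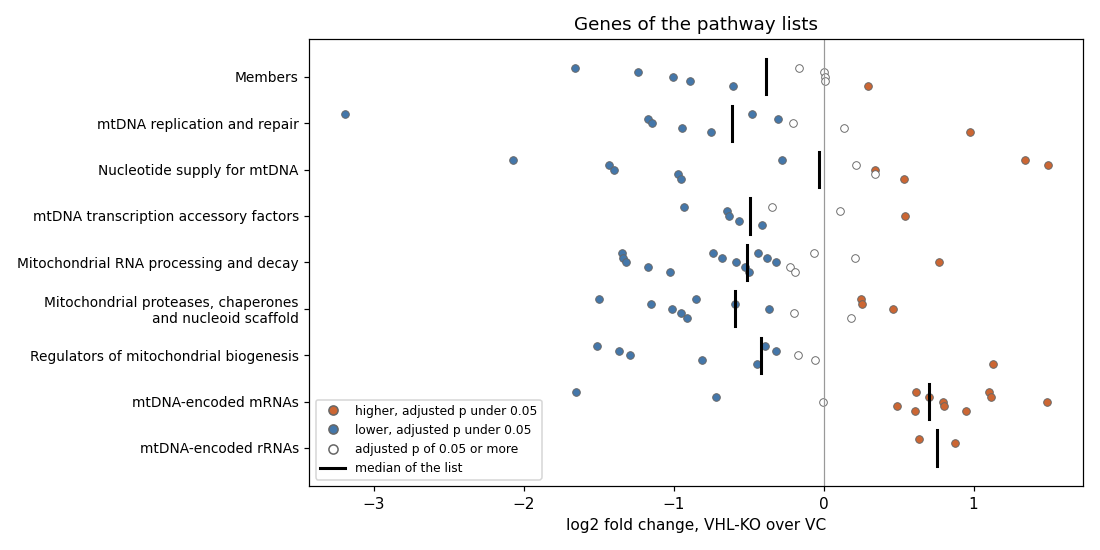
Log2 fold change (VHL-KO over VC) of each tested gene in the 10 members and in 8 lists of related genes; filled points have an adjusted p under 0.05, orange for higher and blue for lower, and black bars are list medians. The medians of the members and of the nuclear lists lie between -0.61 and -0.03, and those of the protein-coding and rRNA genes of the mitochondrial genome at 0.70 and 0.75.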

How the data were processed

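RNA-seq was run on 3 VC and 3 VHL-KO samples, grouped by the genotype in the labels. The table used here, a read count for every gene, was made by the authors. By the study's methods and the submitters' processing notes, reads were trimmed (Trim Galore, cutadapt), aligned to GRCh38.p13 (STAR), kept where they map to a single location (SAMtools) and counted per gene (HTSeq); versions, annotation release, strandedness and counting mode are not given in the sources used here. Reads that fit several copies of a gene were thus lost.

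Groups were compared with edgeR 4.0.16 in R 4.3.3 (TMM factors, quasi-likelihood F test, two-sided, no covariate) on the 17401 genes that reached 10 reads in any sample. P-values were adjusted over all of them (Benjamini-Hochberg, threshold 0.05). SEs are the absolute log2 fold change divided by the square root of F. The steps were tested on simulated data with 200 changed genes and no trend with GC content, so that test does not cover the trend seen here. Spread within groups exceeded counting error (chi-square per degree of freedom 6.43 to 35.3). A count of 0 allows a level of 3 counts, 0.079 to 0.141 CPM, and covers counting error only. Lengths and GC contents came from GENCODE 44, promoters from RefSeq, figures from matplotlib 3.10.9 in Python 3.11.15.

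Members and lists were chosen with earlier results of these data known. Named are the 10 members, VHL and the HIF genes, the genes of each pair, the 3 largest called changes of each other list, and the 3 genes most like TFAM and POLRMT. KRT8, ENDOG, FASTK, GABPB2, PPARGC1A, NRF1, YY1, MT-ATP6, MT-ND4, MT-ND4L and listed genes given by counts alone were named after their values were seen. Alternatives were DESeq2 1.42.0 (Wald test, no independent filtering), RLE and upper quartile factors, library size alone, mitochondrial genes left out, at least 1 read in any or 10 in every sample, each sample left out, the replicate number as a block, and offsets per library for GC content and length (natural splines, 5 degrees of freedom each, from 13144 genes of at least 1 CPM). Offsets and levels from canonical transcripts were chosen after seeing the data.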

Additional observations from a re-analysis of the deposited data

How the results depend on the processing

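The 5 lower calls were made under all 16 alternatives. POLRMT was added to them, for 6 lower genes, by library size alone, by omission of VC replicate 3 and by either set of offsets. Of the 10 genes, 0 were called higher with library size alone, 3 with offsets for GC content and length from merged exons, 1 with those from canonical transcripts, and 0 to 1 when any sample was omitted. The median log2 fold change of the 10 genes was -0.58 with library size alone, -0.55 with the offsets and -0.54 with offsets from canonical transcripts, and -0.27 with upper quartile factors; omission of any sample gave -0.44 to -0.32. Some signs turned, for uncalled genes near 0 and for LONP1 and CLPP, both called higher. TFB1M was at 0.0246 with DESeq2, 0.0247 with RLE factors, 0.11 with upper quartile factors, 0.0308 with the filter of 10 reads in every sample, 0.39 and 0.38 with the offsets, and -0.02 to 0.027 when any sample was omitted. POLG2 was at -0.19 with library size alone, -0.0336 with the filter of 1 read in any sample, -0.001 with canonical offsets and -0.0993 to 0.0983 when any sample was omitted. SSBP1 was in the same order at -0.19, -0.0308, -0.0409 and -0.034 to 0.0605. LONP1 was at -0.0861 and -0.0464 with the offsets and CLPP at -0.0215 with those from merged exons. Omission of VC replicate 2 turned POLD2 to 0.0176 and ZNRD2 to 0.0522. The log2 ratio of LONP1 to CLPP was -0.0606 and -0.12 with the offsets from merged exons and canonical transcripts, and -0.0158 to 0.12 when any sample was omitted. That of LRPPRC to SLIRP turned to 0.36 with the canonical offsets. The causes were not tested. Deviations of samples of the same number had r = 0.15, -0.08 and 0.06 for numbers 1 to 3 over 13144 genes. Between unlike numbers r ran from -0.18 to 0.05. A correlation over genes does not record how samples were prepared, so these values cannot decide whether the numbers pair them. With the replicate block, 5 of the 10 genes were lower and 1 higher, the median was -0.38 and 10284 of all genes were called. Of 872 values of named genes under the alternatives, 813 kept direction and side of the threshold. Many of these genes were named because their called changes were the largest of a list, so this count does not measure stability of genes in general.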
